A study of Homo sapiens with 6 samples.

Results

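The comparison set the A2058 line that overexpresses wild-type TET2 (TET2WT) against the A2058 line that overexpresses the construct called TET2M, or Mut in a further label field. It took the difference from 4 of the series' 6 arrays and its error estimate from all 6. Probe sets that name 1 gene gave 14428 tested genes. A2058 is an established human melanoma cell line. All 6 cultures were A2058 cells grown for 7 days in DMEM with either 4.5 or 1 g/L glucose and split at intervals, and total RNA of each was measured on 1 Affymetrix array. The TET2WT and TET2M lines were each grown at both glucose concentrations and were paired by concentration, and a Mock line grown in the same way supplied the other 2 arrays. The sources used here give neither the promoter that drives the constructs, nor the change carried by TET2M, nor whether a line is 1 clone. Each line was measured once at each concentration, so the number of arrays limits the precision, and a p-value here measures only how far a line difference varied over the concentrations and the lines.

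TET2 belongs to a family of dioxygenases that use iron and 2-oxoglutarate to oxidise 5-methylcytosine in DNA to 5-hydroxymethylcytosine and further products, a step on the way to loss of methylation. TET2 also takes part in repression or activation of genes through partners that modify histones, and mutations of it are best known from blood cancers. Melanoma is known for low levels of 5-hydroxymethylcytosine. How the lines differ in DNA methylation was not measured on these arrays.

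TET2 RNA was not at the same level in the 2 lines. On the probe set of highest mean, TET2 read 9.54 and 9.68 (log2, at 4.5 and 1 g/L glucose, the order used throughout) in TET2WT, 7.57 and 7.37 in TET2M and 3.81 and 4.13 in Mock. Both TET2WT arrays lay above both TET2M arrays, and all 4 lay above Mock. The difference TET2WT minus TET2M was 2.14 ± 0.14 (log2, ± SE, 2 arrays a line), 4.41-fold, with an adjusted p of 0.00187. The level of the construct, its sequence and the identity of the cell line therefore cannot be told apart in any difference below. A second TET2 probe set read 6.64 and 6.87 in TET2WT, 4.57 and 3.89 in TET2M and 2.10 and 2.64 in Mock, in the same order of lines. The remaining one stayed between 5.15 and 5.41 over the 6 arrays, with a difference of -0.14, and so did not follow the constructs.

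TET3, an oxidase of the same kind, read 6.17 and 5.94 in TET2WT, 6.95 and 6.60 in TET2M and 7.16 and 7.02 in Mock, so the lines did not overlap. It was lower in TET2WT by 0.72 ± 0.10 (adjusted p = 0.019), although the mean of its probe sets gave -0.32 and did not pass. TET1 read between 2.48 and 3.08 on the 6 arrays, with a difference of -0.17 ± 0.11 that did not pass (adjusted p = 0.504). Among 23 tested TET and DNA methylation enzymes, TET2 and TET3 were the members that passed (8.7%, against 3.3% of all genes). The median difference of the list was -0.005 against 0 over all genes tested. GAPDH, the glycolytic enzyme often used as a level control, differed by 0.07 ± 0.09 and did not pass.

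Across all genes, limma called 476 of 14428 genes (3.3%) at an adjusted p under 0.05. Of these, 269 (1.86%) were higher and 207 (1.43%) lower in TET2WT than in TET2M. No called gene changed sign between the glucose concentrations. The error estimate grows with such a change, so a gene with one could hardly be called. The lack of sign changes is therefore no result about the concentrations. The smallest called difference was 0.47 and the median called difference 0.82 in size, and 90 genes were both called and at least 2-fold higher, 67 called and at least 2-fold lower. At least 4-fold differences were seen in 18 called genes on the higher side and 9 on the lower side. The same model called 608 genes (4.21%) between TET2WT and Mock and 14 genes (0.097%) between TET2M and Mock, comparisons that share arrays with the one described here. With any 1 of the 6 arrays left out, 1 residual degree of freedom remained and limma called 0 genes, with 1255 to 2353 genes at an unadjusted p under 0.05 against 2546 with all arrays. A rule with no error estimate asked for 1.5-fold or more, with 1 sign, at both concentrations. It held for 346 genes (2.4% of those tested), with 202 (1.4%) higher and 144 (0.998%) lower in TET2WT, and a rule of 2-fold held for 121 (0.839%). No gene was 1.5-fold apart in opposite directions.

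**Figure D1:**
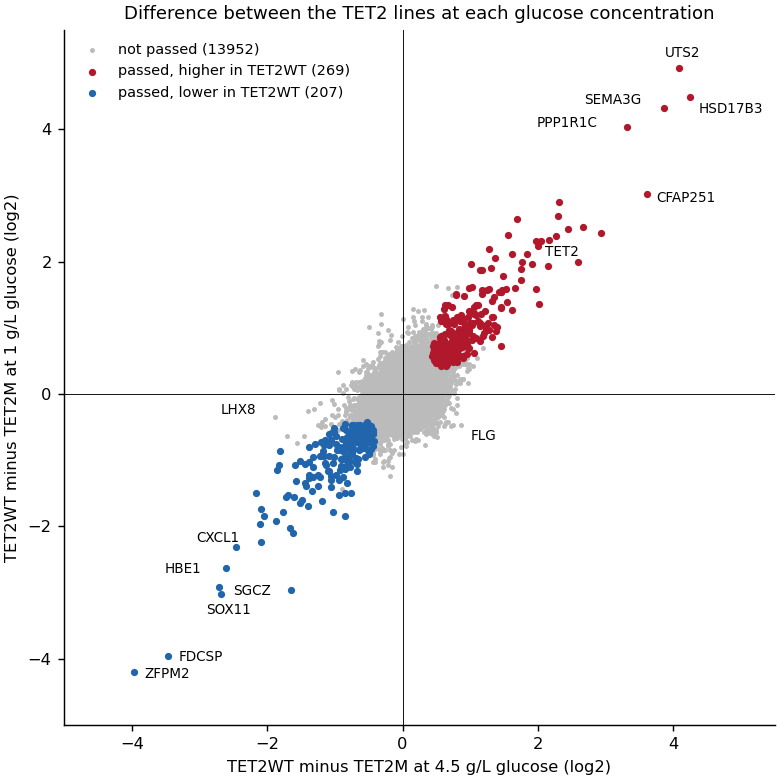
Difference TET2WT minus TET2M at 1 g/L glucose (y axis, log2) against the difference at 4.5 g/L (x axis, log2) for 14428 genes, 1 point a gene. The 269 red genes passed as higher in TET2WT and the 207 blue genes as lower. The passing genes lie in the upper right and lower left. None lies in the upper left or lower right, where the error estimate is large and a gene could hardly pass.

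Medians over all probe sets ran from 2.96 to 3.03. The sorted values of the arrays as deposited differed by at most 0.12, so close medians cannot show that the arrays were technically alike. The 3' minus 5' gap of the ACTB control probe sets was 2.06 and 1.90 in TET2WT. It was 1.93 and 1.65 in TET2M and 2.02 and 1.94 in Mock, so the TET2M array at the lower glucose concentration had the smallest gap. The same gap of the GAPDH control probe sets ran from 0.25 to 0.35. Of the melanocyte lineage markers, the transcription factor SOX10 read 9.51 and 9.65 in TET2WT and 9.44 and 9.53 in TET2M, and the calcium-binding protein S100B read 7.20 to 7.90 over the 6 arrays. The pigment genes MLANA, TYR and TYRP1 read at or below the low-value level of 2.64 (log2, the 40th percentile of probe set means, used to leave out the dimmest probe sets) on all arrays. PMEL, a further pigment gene, read above that level, at 3.89 and 3.73 in TET2WT and 3.55 and 4.20 in TET2M.

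The largest difference in favour of TET2WT lay in genes of secretion, signalling and metabolism, most of which read low in both other lines. HSD17B3, the testicular enzyme that turns androstenedione into testosterone, read 8.10 and 8.48 in TET2WT, 3.85 and 3.99 in TET2M and 4.50 and 4.22 in Mock. Both TET2WT arrays stood far above the other 4, which lay close together. The difference was 4.37 ± 0.16 (20.7-fold, adjusted p = 0.000501). In bulk RNA, more cells expressing a gene and more RNA in each cell cannot be told apart. UTS2, which encodes the vasoactive peptide urotensin 2, read 6.31 and 7.06 in TET2WT against 2.22 and 2.13 in TET2M and 2.29 and 2.30 in Mock. All 4 arrays without the wild-type construct were below the low-value level, so its 22.8-fold difference (4.51 ± 0.21, adjusted p = 0.000603) was set against a reading close to background. The exact size of this fold, and of every other fold given against readings below that level, is therefore uncertain. That level was also the filter on the mean of the 6 arrays, which UTS2 met only through its 2 TET2WT arrays. The same holds for genes such as MEST and CHRNA9 below, and for SGCZ through its TET2M arrays. Their p-values and ranks thus depend on a filter that used the readings of the line where they are high. SEMA3G, a secreted class 3 semaphorin known from blood vessels, read 6.83 and 7.14 in TET2WT, 2.97 and 2.81 in TET2M and 3.40 and 3.54 in Mock. TET2M lay slightly under Mock here, and the difference between the TET2 lines was 4.10 ± 0.13 (17.1-fold, adjusted p = 0.000501).

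PPP1R1C, an inhibitory subunit of protein phosphatase 1, read 7.70 and 8.28 in TET2WT, 4.38 and 4.24 in TET2M and 4.90 and 5.11 in Mock. CFAP251, a protein of cilia and flagella, read 6.69 and 6.10 in TET2WT, 3.07 and 3.08 in TET2M and 3.06 and 2.67 in Mock. In both genes the 2 TET2WT arrays were separate from the other 4, with differences of 3.68 ± 0.17 (12.8-fold) and 3.32 ± 0.15 (9.99-fold). GPX3, the secreted glutathione peroxidase that removes peroxides outside cells, read 6.13 and 6.35 in TET2WT, 3.46 and 3.83 in TET2M and 3.86 and 3.99 in Mock, a difference of 2.60 ± 0.10 (6.04-fold, adjusted p = 0.000501). MEST, an imprinted gene expressed from the paternal copy, read 4.81 and 4.70 in TET2WT, 1.87 and 2.26 in TET2M and 2.83 and 2.47 in Mock. TET2M and Mock were near or below the low-value level for MEST, and the difference was 2.69 ± 0.18 (6.45-fold, adjusted p = 0.00204). ASS1, the argininosuccinate synthase of arginine synthesis, whose loss makes many melanomas depend on outside arginine, read 5.06 and 5.55 in TET2WT, 2.75 and 2.64 in TET2M and 3.19 and 2.48 in Mock. It was 6.11-fold higher in TET2WT than in TET2M (2.61 ± 0.26, adjusted p = 0.00777).

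The rest of the 15 leading higher genes had channel, matrix and immune roles. NALCN, the sodium leak channel, was 2.50 ± 0.15 higher and read 4.95 and 5.43 in TET2WT against 2.65 and 2.74 in TET2M. CHRNA9, a nicotinic acetylcholine receptor subunit, was 2.48 ± 0.09 higher and read below the low-value level on both TET2M and both Mock arrays. PKDCC, a secreted protein kinase of the skeleton, was 2.33 ± 0.10 higher and read 6.35 and 6.76 in TET2WT. None of these groups of arrays overlapped. TIMP4, an inhibitor of matrix metalloproteinases, was 2.25 ± 0.15 higher, and MBL2, the mannose-binding lectin of the complement system, 2.30 ± 0.16 higher, both against TET2M readings below the low-value level. LAPTM5, a lysosomal membrane protein known from blood cells, was 2.13 ± 0.12 higher, and PROSER2 was 2.18 ± 0.12 higher from the highest starting level of the 15 genes, 9.13 and 8.87 in TET2WT against 7.09 and 6.56 in TET2M. The TET2M minus Mock differences of these 15 genes ran from -0.69 (PPP1R1C) to 0.21 (CFAP251), and none of them passed.

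On the lower side, transcription factors, neural genes and secreted inflammatory proteins led. ZFPM2, a cofactor of GATA transcription factors also called FOG2, read 2.31 and 2.16 in TET2WT, 6.28 and 6.37 in TET2M and 4.54 and 4.43 in Mock. Each line had a level of its own with Mock in the middle: the 2 constructs lay on opposite sides of Mock. The difference between the TET2 lines was -4.09 ± 0.10 (17.0-fold lower in TET2WT, where it read below the low-value level, adjusted p = 0.000223), of which TET2M minus Mock made 1.84 (adjusted p = 0.0042). FDCSP, a small protein secreted by follicular dendritic cells, read 2.23 and 1.88 in TET2WT, 5.70 and 5.84 in TET2M and 8.59 and 8.74 in Mock. It also had 3 separate levels, but with TET2M between TET2WT and Mock, and its difference was -3.71 ± 0.14 (13.1-fold lower, again from TET2WT readings below the low-value level). HBE1, the embryonic epsilon chain of haemoglobin, read 4.13 and 4.24 in TET2WT, 6.84 and 7.16 in TET2M and 6.06 and 5.95 in Mock, a difference of -2.81 ± 0.12 (7.04-fold lower). For HBE1, TET2M was the highest line.

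SOX11, a transcription factor of neural and neural crest development, read 3.61 and 4.11 in TET2WT, 6.30 and 7.13 in TET2M and 6.98 and 7.41 in Mock. TENM2, a teneurin that joins nerve cells at synapses, read 2.50 and 2.20 in TET2WT, 5.11 and 4.83 in TET2M and 5.92 and 5.74 in Mock. ELAVL2, an RNA-binding protein of neurons, read 2.28 and 2.17 in TET2WT, 4.74 and 4.48 in TET2M and 4.81 and 4.50 in Mock. TET2WT was far below the other lines for these 3 neural genes. TET2M and Mock lay close together for ELAVL2, while TET2M stood 0.86 under Mock for TENM2 with no overlap, a step that did not pass (adjusted p = 0.0589). Their differences were -2.85 ± 0.12, -2.62 ± 0.09 and -2.39 ± 0.10, that is 7.24-fold, 6.15-fold and 5.22-fold lower, with adjusted p-values of 0.000603, 0.000501 and 0.00051. TENM2, ELAVL2 and SGCZ read below the low-value level in TET2WT. SGCZ, the zeta subunit of the sarcoglycan complex of muscle, had another pattern: it read 2.41 and 2.02 in TET2WT, 4.06 and 4.98 in TET2M and 2.78 and 2.24 in Mock. TET2M alone was high for SGCZ, which was 2.31 ± 0.34 lower in TET2WT (adjusted p = 0.0267).

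The other lower genes described here had varied roles. IGFBP3, which binds insulin-like growth factors outside cells, read 6.40 and 7.33 in TET2WT, 8.51 and 9.30 in TET2M and 9.12 and 9.24 in Mock, a difference of -2.04 ± 0.20 (4.11-fold lower). PTX3, the long pentraxin of innate immunity, read 5.44 and 5.34 in TET2WT, 7.49 and 7.19 in TET2M and 8.93 and 8.85 in Mock, a difference of -1.95 ± 0.10 (3.86-fold lower). The arrays of the 3 lines did not overlap for PTX3, while TET2M and Mock overlapped for IGFBP3. MFAP2, a component of elastic microfibrils, read 5.64 on both TET2WT arrays and 7.41 and 7.43 in TET2M, a difference of -1.78 ± 0.09 that was nearly the same at both concentrations. KRT14, a keratin of basal keratinocytes, was 1.85 ± 0.11 lower, and AKR1C2, a ketosteroid reductase, 1.58 ± 0.10 lower. The probe sets of AKR1C genes may take up RNA of near-identical copies, as taken up below.

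**Figure D2:**
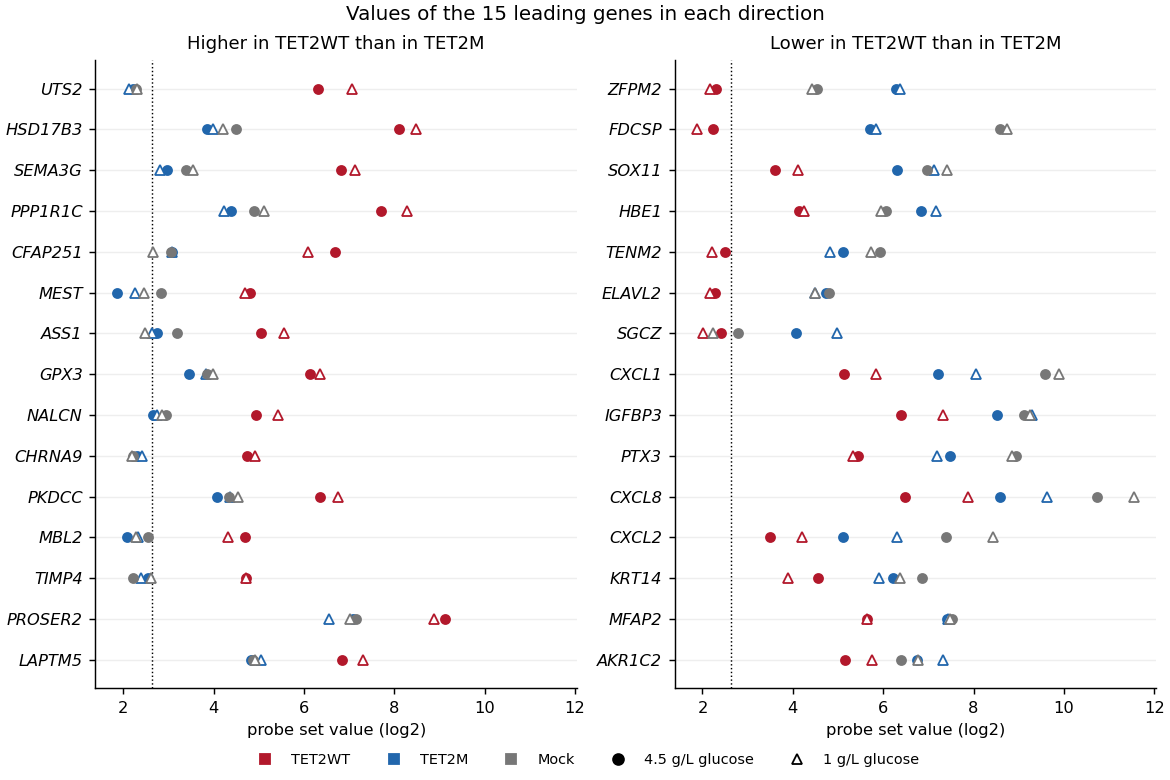
Log2 probe set values (x axis) of the 15 leading genes higher (left) and the 15 lower (right) in TET2WT than in TET2M, 1 symbol an array: colour gives the line, filled circles 4.5 g/L and open triangles 1 g/L glucose, and the dotted line is the low-value level of 2.64. The TET2WT symbols are separate from the TET2M symbols in all 30 genes, while the Mock symbols lie well beyond TET2M for FDCSP, CXCL1, CXCL2, CXCL8 and PTX3, between the TET2 lines for ZFPM2 and HBE1, beside TET2WT for SGCZ and nearer to TET2M than to TET2WT for the rest.

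Chemokines that attract neutrophils were the most visible group on the lower side. CXCL1, CXCL2, CXCL3 and CXCL8 are secreted ligands of the receptor CXCR2, and CCL2 attracts monocytes. In many cells their genes are switched on by the transcription factor NF-kB, which binds a short site close to the start. The last 120 bases before the start of the 4 CXC genes are shown because they let the shared part be seen beside the expression values. They are from the RefSeq annotation of GRCh38.p14, written 5′ to 3′ on the strand of the gene, and the capitals mark GGAATTTCC, the motif searched, on either strand.
CXCL1 (chr4:73869273-73869392, plus strand): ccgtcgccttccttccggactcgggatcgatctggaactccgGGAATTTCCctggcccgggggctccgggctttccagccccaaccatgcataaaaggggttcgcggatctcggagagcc
CXCL2 (chr4:74099196-74099315, minus strand): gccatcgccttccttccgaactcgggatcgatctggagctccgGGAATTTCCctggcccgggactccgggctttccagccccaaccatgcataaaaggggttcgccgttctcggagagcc
CXCL3 (chr4:74038690-74038809, minus strand): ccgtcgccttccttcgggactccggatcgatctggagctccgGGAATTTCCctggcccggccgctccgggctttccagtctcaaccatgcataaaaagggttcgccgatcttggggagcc
CXCL8 (chr4:73740449-73740568, plus strand): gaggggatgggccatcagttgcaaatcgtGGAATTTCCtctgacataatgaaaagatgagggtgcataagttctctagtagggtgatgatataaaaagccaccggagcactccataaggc
The windows of CXCL1 and CXCL2 were identical at 93.4% of aligned positions, CXCL1 and CXCL3 at 90.8% and CXCL2 and CXCL3 at 88.4%. CXCL8 matched each of the other 3 at 45.3% to 47.4%. Counted from the start, the first base of the motif lay at -78 in CXCL1, -77 in CXCL2, -78 in CXCL3 and -91 in CXCL8. Over the 250 bases before the start it was found in 117 of 27305 promoters (0.43%) and in 44 of the 11514 tested genes with a promoter entry (0.38%). Among genes that passed, 4 of 170 lower genes (2.35%) and 1 of 210 higher genes (0.48%) held it, and the 4 were these chemokines. The motif was searched with these chemokines already known to be lower, and the windows of CXCL1, CXCL2 and CXCL3 are near copies. The shares therefore describe these genes and are no test of a link. A match is a run of letters and not a bound site.

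CXCL1 read 5.13 and 5.83 in TET2WT, 7.22 and 8.06 in TET2M and 9.59 and 9.89 in Mock. CXCL8 read 6.49 and 7.88 in TET2WT, 8.58 and 9.62 in TET2M and 10.73 and 11.56 in Mock. CXCL2 read 3.50 and 4.20 in TET2WT, 5.12 and 6.30 in TET2M and 7.39 and 8.43 in Mock. All 3 stood in the order TET2WT, TET2M, Mock at each glucose concentration, and within each line the array at 1 g/L was the higher. CXCL3 read 3.40 and 3.56 in TET2WT, 4.62 and 4.81 in TET2M and 6.93 and 7.21 in Mock, and CCL2 read 5.18 and 5.55, 6.24 and 6.79, and 8.23 and 8.35 in the same lines. The step from TET2WT to TET2M was -2.16 ± 0.14 for CXCL1, -1.92 ± 0.14 for CXCL8, -1.86 ± 0.13 for CXCL2, -1.24 ± 0.09 for CXCL3 and -1.15 ± 0.12 for CCL2, with adjusted p-values from 0.00204 to 0.00946. The step from TET2M to Mock for these genes was of like size or larger, from -2.36 (CXCL3) to -1.78 (CCL2), so TET2M lay between the other lines. The chemokine genes were thus 2.22-fold to 4.47-fold lower in TET2WT than in TET2M. CCL20, a ligand for CCR6, differed by -0.62 ± 0.15 and did not pass. In all, 5 of 16 tested chemokines passed, all lower, against 3.3% of all genes, and the median of the list was -0.0075. CXCL1, CXCL2 and CXCL3 are near-identical in parts of their transcripts, and their probe sets may take up each other's RNA.

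Neighbouring inflammatory lists did not move as a block. Of 23 tested genes of the NF-kB pathway and its feedback limma called 0, with 7 at an unadjusted p under 0.05 (17.6% of all genes were), and the list median was -0.015. TNFAIP3, a feedback inhibitor of NF-kB, read 4.49 and 4.79 in TET2WT, 4.75 and 5.37 in TET2M and 6.16 and 6.99 in Mock, and its difference of -0.42 ± 0.14 did not pass. ICAM1, an adhesion molecule, read 6.01 and 6.64 in TET2WT against 5.79 and 5.81 in TET2M, a difference of 0.53 ± 0.15 in the other direction that did not pass either. Of 10 tested acute-phase genes, 3 passed (30%, against 3.3% of all genes). PTX3 was lower, as given above. LCN2, the iron-scavenging lipocalin, read 3.03 and 4.40 in TET2WT, 3.66 and 4.94 in TET2M and 6.25 and 7.67 in Mock. Its step between the TET2 lines was small (-0.58 ± 0.09, adjusted p = 0.0307) beside its step between TET2M and Mock (-2.66), and the arrays of the TET2 lines overlapped when the concentrations were not paired. C1R, a protease of the classical complement pathway, was higher in TET2WT by 0.87 ± 0.10.

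Cytokines of the interleukin-1 and interleukin-6 families went the other way from the chemokines. IL1B, a main inflammatory cytokine, read 4.02 and 3.85 in TET2WT, 2.69 and 2.68 in TET2M and 2.83 and 2.93 in Mock. IL1A, its relative that is also released from damaged cells, read 5.92 and 6.84 in TET2WT, 5.26 and 5.76 in TET2M and 5.55 and 5.83 in Mock. IL11, a cytokine that signals through the receptor chain gp130, read 6.81 and 6.98 in TET2WT, 5.47 and 5.81 in TET2M and 6.09 and 6.18 in Mock. Both TET2WT arrays were above both TET2M arrays for all 3, and TET2M was the lowest line for each. The differences were 1.25 ± 0.10 for IL1B, 0.87 ± 0.16 for IL1A and 1.26 ± 0.10 for IL11, with adjusted p-values of 0.00408, 0.0483 and 0.00371. In the mean of its probe sets IL11 differed by 0.76 and still passed. OSMR, a receptor for oncostatin M, was 1.07 ± 0.17 higher and passed (adjusted p = 0.0333), although the mean of its probe sets gave 0.46 and did not pass. LIF, a cytokine of the same family, differed by 0.65 ± 0.15 and IL6ST, the gp130 chain itself, by 0.47 ± 0.10, and neither passed. The list had 4 of 19 tested genes higher (21.1%, against 3.3% of all genes called) and none lower, with a median of 0.17.

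Interferon-inducible genes leaned to the TET2WT side as a list, by small steps and not in every member. Of 37 tested, 7 passed (18.9%, against 3.3% of all genes), all higher, and 30 had a difference above 0 (49.8% of all genes had). The median was 0.32 against 0 over all genes. IFITM1, a membrane protein that limits virus entry, read 4.53 and 4.57 in TET2WT, 3.07 and 3.02 in TET2M and 2.66 and 2.99 in Mock. Both TET2WT arrays were clearly above the rest, by 1.51 ± 0.12 over TET2M (2.84-fold, adjusted p = 0.0034). CMPK2, a mitochondrial nucleotide kinase, was 0.99 ± 0.12 higher, IFIH1, a sensor of viral double-stranded RNA, 0.71 ± 0.10 higher, and ISG15, a ubiquitin-like modifier, 0.71 ± 0.10 higher. IFI35 (0.70 ± 0.13) and MX1 (0.67 ± 0.14) had differences of nearly that size and adjusted p-values of 0.0525 and 0.0635. Members below 0, named after their values were seen, included IFI44 (-0.43 ± 0.25), OAS1 (-0.115 ± 0.15), OAS3 (-0.02 ± 0.09) and IFIT2 (-0.005 ± 0.09). None of these passed. Over the list the median TET2M minus Mock difference was 0.03 and the median TET2WT minus Mock difference 0.41. IFITM1 has near-identical paralogs whose RNA its probe set may take up.

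Genes of MHC class I antigen presentation, many of which interferons induce, had 14 of 16 differences above 0 and a median of 0.12. Only PSMB9, a subunit of the immunoproteasome, passed (6.25% of the list, against 3.3% of all genes). It read 6.82 and 6.93 in TET2WT, 6.32 and 6.28 in TET2M and 6.40 and 6.21 in Mock, a difference of 0.57 ± 0.10 (adjusted p = 0.0493). HLA-C and HLA-B, classical presenting molecules, differed by 0.45 ± 0.09 and 0.44 ± 0.09, and TAP1, a peptide transporter, by 0.41 ± 0.09, with adjusted p-values from 0.0561 to 0.0763. RNA of the HLA genes cannot be fully told apart on these probe sets.

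**Figure D3:**
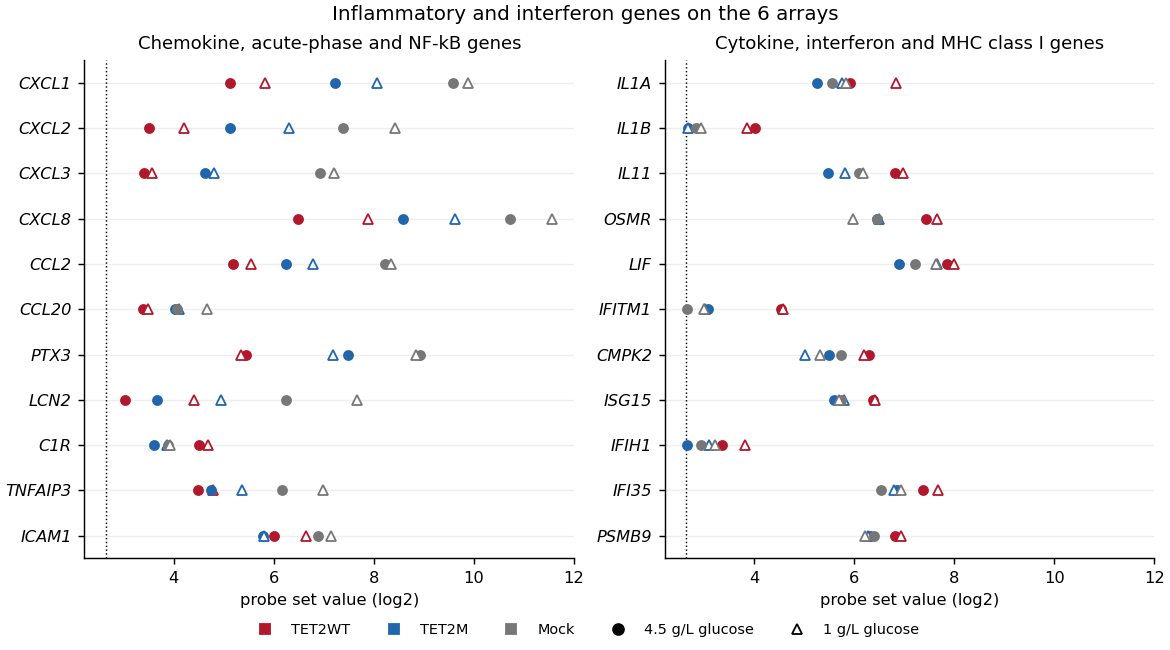
Log2 probe set values (x axis) of chemokine, acute-phase and NF-kB genes (left) and of cytokine, interferon and MHC class I genes (right), 1 symbol an array: colour gives the line, filled circles 4.5 g/L and open triangles 1 g/L glucose, and the dotted line is the low-value level of 2.64. On the left TET2M lies between TET2WT and Mock at each concentration for the 4 CXC genes, CCL2, PTX3 and LCN2. On the right TET2WT lies above TET2M at each concentration in every gene shown.

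Of 20 tested melanocyte lineage and pigment genes, 2 (10%, against 3.3% of all genes) were higher in TET2WT, none lower, and the median was 0.06. At an unadjusted p under 0.05 there were 6 (30%, against 17.6% of all genes). BCL2A1, a survival protein of the BCL2 family that melanocytes express, read 4.00 and 4.11 in TET2WT, 2.76 and 3.12 in TET2M and 3.48 and 3.93 in Mock, a difference of 1.12 ± 0.11. Here TET2M was the low line and TET2WT and Mock were close. TFAP2A, a transcription factor of the neural crest, was 0.77 ± 0.11 higher. MITF, the master regulator of the lineage, read 6.40 and 6.30 in TET2WT, 6.60 and 6.82 in TET2M and 6.96 and 6.93 in Mock, and its difference of -0.36 ± 0.11 did not pass (adjusted p = 0.17).

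Among 30 tested genes of the undifferentiated, invasive melanoma state, 4 were higher in TET2WT (13.3%, against 3.3% of all genes called). None was lower, and the median was -0.04. S100A2, a calcium-binding protein, read 12.00 and 11.64 in TET2WT, 10.51 and 9.85 in TET2M and 10.23 and 9.72 in Mock, one of the largest differences at a high level (1.64 ± 0.11, 3.12-fold). LOXL2, an enzyme that crosslinks collagen, was 0.85 ± 0.11 higher, but the mean of its probe sets gave 0.24 and did not pass. NES, the intermediate filament nestin of neural progenitors, was 0.65 ± 0.09 higher and TGFBI, a secreted adhesion protein, 0.65 ± 0.12 higher. Of 19 tested SOX and PAX factors, SOX11 and SOX5 were lower (10.5% of the list) and none higher. SOX5 differed by -0.61 ± 0.10 on its brightest probe set and by -0.12 in the mean of its probe sets, which did not pass. Of 26 tested HOX genes limma called 0, with 4 (15.4%, against 17.6% of all genes) at an unadjusted p under 0.05. HOXB8 had the largest of their differences (0.78 ± 0.18, adjusted p = 0.0887).

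Matrix genes were split, with chains of the same families on both sides. Of 26 tested collagen chain genes, 3 were higher and 4 lower in TET2WT, 26.9% of the list against 3.3% of all genes, and the median was 0.03. COL6A3, a chain of the beaded filament collagen VI, read 7.12 and 6.94 in TET2WT, 5.21 and 4.98 in TET2M and 5.64 and 5.38 in Mock, a difference of 1.94 ± 0.09 (3.82-fold, adjusted p = 0.000603). COL6A1, its partner chain, was 1.13 ± 0.11 higher on its brightest probe set, with 0.45 in the mean of its probe sets, which did not pass. COL11A1, a fibrillar chain of cartilage, was 1.17 ± 0.13 higher from TET2M readings below the low-value level. On the other side COL8A1, a short-chain collagen of vessel walls, was 0.79 ± 0.13 lower and COL5A2, a chain of the thin fibrillar collagen V, 0.74 ± 0.10 lower. The other 2 lower chains, named here after their values were seen, were COL4A1 and COL4A2, which form basement membrane collagen and lie next to each other on chromosome 13. They differed by -0.55 and -0.56.

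Laminins, the other large basement membrane proteins, were higher where they passed. LAMA5, a laminin chain, read 6.87 and 7.34 in TET2WT, 5.12 and 5.45 in TET2M and 5.45 and 5.31 in Mock, with the TET2WT arrays well apart (1.82 ± 0.16, 3.53-fold, adjusted p = 0.00504). LAMA4 was 0.68 ± 0.10 higher on its brightest probe set and did not pass in the mean of its probe sets. These were the 2 of 31 integrin and laminin genes that passed (6.45%, against 3.3% of all genes), and the list median was 0.07. ITGA1, a collagen-binding integrin chain, differed by 0.74 ± 0.24 and did not pass.

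Matrix metalloproteinases and their inhibitors were called on both sides. Of 27 tested genes, 2 were higher and 6 lower (29.6% of the list, against 3.3% of all genes called). MMP8, a collagenase of neutrophils, read 3.48 and 3.76 in TET2WT, 4.99 and 4.77 in TET2M and 5.66 and 5.36 in Mock. ADAMTS1, a protease that cuts proteoglycans, read 3.55 and 4.24 in TET2WT, 4.87 and 5.35 in TET2M and 4.75 and 4.96 in Mock. MMP16, a membrane-bound metalloproteinase, read 7.53 and 8.13 in TET2WT, 8.85 and 9.08 in TET2M and 8.88 and 9.08 in Mock. TET2WT was the lowest line for all 3, with differences of -1.26 ± 0.15, -1.22 ± 0.13 and -1.14 ± 0.13. The mean of the probe sets gave -0.80 for ADAMTS1 and -0.71 for MMP16, and both still passed. MMP9, a gelatinase, read 3.31 and 3.11 in TET2WT, 3.99 and 4.28 in TET2M and 5.76 and 5.47 in Mock. Like the chemokines it had TET2M in the middle, and its difference was -0.93 ± 0.15 (adjusted p = 0.038). MMP1, an interstitial collagenase, differed by -0.77 ± 0.19 and did not pass. Both higher genes were TIMPs, the natural inhibitors of these enzymes: TIMP4, given above, and TIMP1, named here after its value was seen, which was 0.57 ± 0.09 higher (adjusted p = 0.0286). The other 2 inhibitors of the family did not pass, with differences of -0.35 for TIMP2 and -0.17 for TIMP3.

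Growth factor genes showed 1 large gain and 3 losses. PDGFA, a ligand for platelet-derived growth factor receptors, read 6.70 and 6.54 in TET2WT, 4.55 and 4.60 in TET2M and 4.80 and 4.60 in Mock, a difference of 2.05 ± 0.10 (4.13-fold, adjusted p = 0.000813). PDGFD, another ligand of the family, moved the opposite way: it read 3.01 and 3.17 in TET2WT, 4.83 and 4.24 in TET2M and 4.65 and 4.36 in Mock, a difference of -1.45 ± 0.18 (2.72-fold lower, adjusted p = 0.0143), or -0.82 in the mean of its probe sets, which also passed. For both genes TET2M and Mock overlapped. FLT1, a receptor for VEGF, was 0.83 ± 0.10 lower on its brightest probe set, though the mean of its probe sets gave -0.43 and did not pass, and VEGFC, a lymphatic growth factor, was 0.70 ± 0.10 lower. Of 31 tested genes of the FGF, PDGF, VEGF and EGF families these were the 4 that passed (12.9%, against 3.3% of all genes). The median was -0.04. IGFBP6, a binding protein with preference for IGF2, read 6.06 on both TET2WT arrays and 7.19 and 7.14 in TET2M (-1.11 ± 0.10). With IGFBP3 it made 2 lower genes of 16 tested in the IGF list (12.5%).

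Of 34 tested WNT genes and 34 TGF-beta and BMP response genes limma called 0 in each. At an unadjusted p under 0.05 there were 8 (23.5%) and 11 (32.4%), against 17.6% of all genes. FZD7, a WNT receptor, differed by -0.85 ± 0.17, ID3, an inhibitor of helix-loop-helix factors, by -0.76 ± 0.17 and FST, an antagonist of activin, by -0.70 ± 0.15 on its brightest probe set, and none passed. On its other 2 probe sets FST differed by -1.17 and -0.98, and in the mean of the 3 by -0.95, which passed (adjusted p = 0.0115). Among 25 NOTCH pathway genes 2 passed (8%, against 3.3% of all genes): HEY2, a transcriptional repressor and NOTCH target, was 1.01 ± 0.17 higher on its brightest probe set (it did not pass in the mean of its probe sets) and HES6 was 0.49 ± 0.09 higher. Of 28 semaphorin, plexin and neuropilin genes SEMA3G passed (3.57%, near the share of all genes). Of 18 ephrin and Eph receptor genes limma called 0, with 5 (27.8%) at an unadjusted p under 0.05.

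Adhesion molecules of neurons were lower where they passed. Of 21 tested cadherins and teneurins, 4 were lower (19%, against 3.3% of all genes called) and none higher. PCDH17, a protocadherin, read 5.14 and 5.01 in TET2WT, 6.20 and 6.31 in TET2M and 5.24 and 5.38 in Mock, so that TET2M stood above the other lines (-1.18 ± 0.11). PCDH9, another protocadherin, read 4.22 and 3.96 in TET2WT, 5.08 and 4.95 in TET2M and 4.95 and 4.82 in Mock, with TET2WT below the other lines (-0.93 ± 0.09). CDH12, a brain cadherin, was 0.85 ± 0.15 lower, and TENM2 is given above. Of 41 genes lower in TET2WT among all list members, 7 lay on chromosome 13, PCDH9 and PCDH17 among them. Over all tested genes 46 of the 207 lower genes lay there, a larger share.

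Imprinted genes are expressed from 1 parental copy under control of DNA methylation. Of 21 tested members 3 were higher in TET2WT (14.3%, against 3.3% of all genes called), none lower, and the median was 0.13. Besides MEST, PLAGL1, a zinc finger protein expressed from the paternal copy, read 4.22 and 4.02 in TET2WT, 2.67 and 2.63 in TET2M and 2.77 and 2.27 in Mock, a difference of 1.47 ± 0.13 (2.77-fold, adjusted p = 0.00522). CDKN1C, a cyclin-dependent kinase inhibitor expressed from the maternal copy, read 7.51 and 7.77 in TET2WT, 6.32 and 6.90 in TET2M and 6.38 and 6.73 in Mock, a difference of 1.03 ± 0.11 (adjusted p = 0.00912). The 3 genes lie on chromosomes 7, 6 and 11, and the arrays of TET2M and Mock overlapped for PLAGL1 and CDKN1C, while TET2M lay under Mock for MEST. KCNQ1OT1, the noncoding RNA beside CDKN1C, differed by 0.46 ± 0.11 and GNAS by 0.40 ± 0.09, and neither passed.

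Cancer-testis antigens, germline genes that DNA methylation usually keeps silent in the body, did not rise together. Of 19 tested, 1 was higher and 2 lower (15.8%, against 3.3% of all genes called). SSX1 read 3.40 and 3.47 in TET2WT, 5.12 and 5.03 in TET2M and 5.62 and 5.57 in Mock, in 3 separate levels (-1.64 ± 0.09, 3.12-fold lower, adjusted p = 0.00127). PAGE1 read 4.61 and 4.58 in TET2WT, 6.18 and 5.89 in TET2M and 6.42 and 5.74 in Mock (-1.44 ± 0.16). MAGEA11, an antigen that also binds the androgen receptor, was 0.62 ± 0.09 higher. SSX1 belongs to a cluster of near-identical copies on the X chromosome, and its probe set may report several of them.

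Counts for cell cycle and cell death genes stand beside those of all genes. Of all genes, 3.3% were called and 17.6% were at an unadjusted p under 0.05. Of 43 tested G2/M and mitosis genes limma called 0, with 2 (4.65%) at an unadjusted p under 0.05. Their differences ran from -0.22 to 0.41 with a median of -0.04. Of 43 G1/S and DNA replication genes RFC3, a subunit of the clamp loader encoded on chromosome 13, passed, as lower (-0.65 ± 0.09). That is 2.33% of the list, and 7 (16.3%) were at an unadjusted p under 0.05, shares near those of all genes. CCND1, the D-type cyclin, read 9.88 and 9.70 in TET2WT, 9.35 and 9.12 in TET2M and 9.66 and 9.62 in Mock and was 0.56 ± 0.09 higher, with TET2M as the line apart from the others, but it did not pass in the mean of its probe sets. Together with CDKN1C it was 1 of 2 of 14 tested inhibitors, D cyclins and RB family genes that passed (14.3%). BCL2L11, the death-promoting protein BIM, was 0.85 ± 0.12 higher (0.48 in the mean of its probe sets, which also passed). With BCL2A1 it gave 2 higher genes of 17 in the BCL2 family (11.8%). Of 27 p53 target genes limma called 0, with 5 (18.5%, near the share of all genes) at an unadjusted p under 0.05.

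Hypoxia-inducible genes, many of them targets of HIF1A, were higher where they passed. Of 27 tested, 5 were higher (18.5%, against 3.3% of all genes called), none lower, and the median was 0.21. STC1, a secreted glycoprotein of calcium balance, read 5.42 and 6.00 in TET2WT, 4.07 and 4.95 in TET2M and 4.50 and 4.79 in Mock. ANGPTL4, a secreted inhibitor of lipoprotein lipase, read 6.68 and 6.90 in TET2WT, 5.95 and 5.58 in TET2M and 5.46 and 5.02 in Mock. NDRG1, a stress protein, read 8.07 and 8.44 in TET2WT, 7.46 and 7.67 in TET2M and 7.13 and 7.27 in Mock. TET2WT was the highest line for all 3, and TET2M stood above Mock for ANGPTL4 and NDRG1. The differences were 1.20 ± 0.15, 1.03 ± 0.17 and 0.69 ± 0.10, with adjusted p-values from 0.0145 to 0.0388. The other 2 were LOXL2, given above, and PFKFB3, an activator of glycolysis (0.56 ± 0.10). PDK4, which restrains pyruvate oxidation, differed by 1.12 ± 0.22 but varied over glucose and did not pass (adjusted p = 0.0604). Of 34 tested glycolysis and pentose phosphate genes PFKFB3 passed (2.94%, against 3.3% of all genes). At an unadjusted p under 0.05 there were 7 (20.6%, against 17.6% of all genes).

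Metabolic and stress lists differed in how many members moved. Over all genes, 3.3% were called and 17.6% were at an unadjusted p under 0.05. Of 43 nuclear-encoded respiratory chain subunits limma called 0, with 0 at an unadjusted p under 0.05, and their differences lay between -0.23 and 0.19. Of 33 cholesterol and fatty acid synthesis genes limma called 0 and of 25 unfolded protein response genes 0, with 2 (6.06%) and 5 (20%) at an unadjusted p under 0.05. Of 9 metallothioneins, small metal-binding proteins, limma called 0, with 4 (44.4%) at an unadjusted p under 0.05. PLOD2, a collagen lysyl hydroxylase, was the 1 of 42 enzymes making or using 2-oxoglutarate that passed (2.38% of the list, 0.58 ± 0.09 higher). Of 36 genes driven by ATF4 or of serine and amino acid supply, ASS1 was higher and SLC7A11, the cystine carrier, lower (-0.66 ± 0.12), which is 5.56% of the list, and 13 (36.1%) were at an unadjusted p under 0.05. KLF10, an early response repressor, was 0.60 ± 0.11 higher and was the 1 of 20 glucose-sensing genes that passed (5%). SPRY2, a feedback inhibitor of MAPK signalling encoded on chromosome 13, was 0.70 ± 0.09 lower, and with KLF10 and CCND1 it made 3 of 41 immediate early and MAPK feedback genes (7.32%), of which 14 (34.1%) were at an unadjusted p under 0.05.

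NRF2 targets and antioxidant genes held a contrast between GPX3 and the aldo-keto reductases. AKR1C2 read 5.15 and 5.76 in TET2WT, 6.75 and 7.32 in TET2M and 6.40 and 6.76 in Mock. AKR1C3 read 4.05 and 4.72 in TET2WT, 5.64 and 5.80 in TET2M and 5.47 and 5.47 in Mock, and AKR1C1 read 5.97 and 6.01 in TET2WT, 6.85 and 7.27 in TET2M and 6.54 and 6.90 in Mock. TET2M was the highest and TET2WT the lowest line for all 3, which neighbour each other on chromosome 10, with differences of -1.58 ± 0.10, -1.34 ± 0.17 and -1.07 ± 0.12, the last -0.68 in the mean of its probe sets, which still passed. These genes are near-identical copies, so the 3 values may not be independent. With SLC7A11 they made 4 lower and, with GPX3, 1 higher of 33 tested (15.2% of the list), and the list median was 0.005. YAP target genes had 3 lower and none higher of 26 tested (11.5%, against 3.3% of all genes called), with a median of -0.12. Besides IGFBP3 these were MYOF, a membrane repair protein (-0.51 ± 0.09), and WWC1, a Hippo pathway scaffold (-0.52 ± 0.09 on its brightest probe set and -0.07 in the mean of its probe sets, which did not pass).

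**Figure D4:**
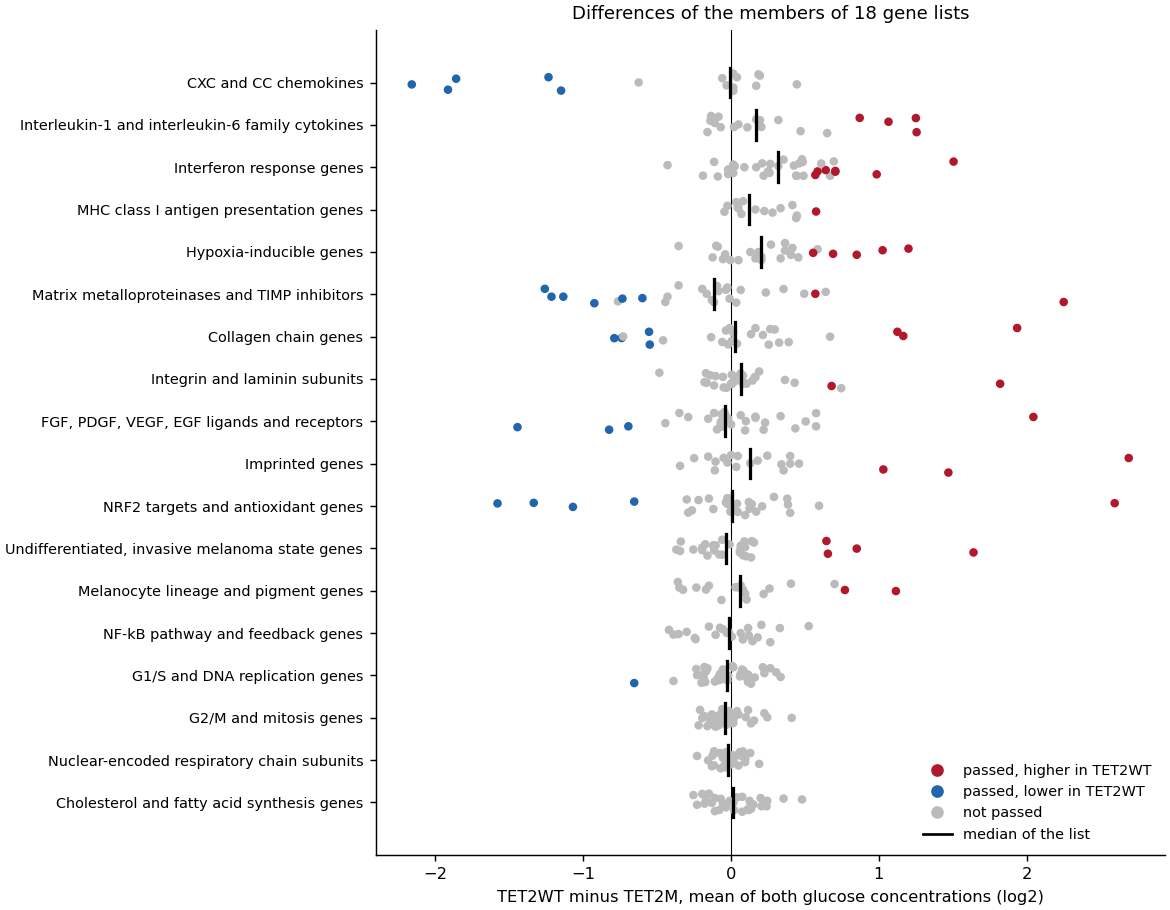
Difference TET2WT minus TET2M (x axis, log2, mean of both glucose concentrations) of the tested members of 18 gene lists, 1 point a gene; red and blue genes passed, grey genes did not, and the black bar is the list's median. Chemokines have 5 blue points far to the left of a median at -0.0075, most interferon genes sit right of 0 with a median of 0.32, and the respiratory chain subunits lie closest to 0.

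Over all 48 lists 1119 genes were tested, of which 49 were higher and 41 lower, 8.04% against 3.3% of all genes. These lists were written with earlier results of these data known, so a share above that of all genes is no finding about them. Markers of other cell types ranged from background to high levels. Among keratinocyte markers KRT10 read 9.23 to 9.39 and PERP 9.22 to 9.55 over the 6 arrays, while KRT1, KRT5 and KRT16 read between 2.49 and 3.54. Among fibroblast markers S100A4 read 11.62 to 12.52 and PDGFRA 2.63 to 2.90. Of 9 tested keratinocyte markers KRT14 was lower, and of 8 fibroblast markers LUM, a matrix proteoglycan, was lower (-1.33 ± 0.13) and S100A4, which many tumour cells also make, higher (0.57 ± 0.09). Of 6 endothelial and 6 blood cell markers limma called 0, with 1 and 0 at an unadjusted p under 0.05. The summed log2 level of 11 keratinocyte markers was 54.39 and 49.72 in TET2WT and 54.78 and 52.80 in TET2M, and that of 12 fibroblast markers 48.51 and 46.99 against 48.54 and 48.19. For 10 endothelial markers the sums were 30.0 and 29.55 against 29.89 and 30.7, and for 9 blood cell markers 29.69 and 28.03 against 28.43 and 29.27. The TET2 lines overlapped for all 4 lists when the concentrations were not paired. Within each concentration TET2WT was below TET2M for keratinocyte and fibroblast markers. At 4.5 g/L these gaps were smaller than the difference of 1 member each, KRT14 (-1.67) and LUM (-1.38), so they give no direction of the lists. The other lists had no common direction. Each sum took a marker's brightest probe set on that array.

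How the gap between the lines changed with glucose was described and not tested, with 1 array behind each value. At least 2-fold differences were seen in 176 genes at 4.5 g/L and in 205 at 1 g/L, and 121 had them at both with 1 sign. The median gene's difference changed by 0.17 between the concentrations, beside a median SE of 0.10 for the difference. In 48 genes it changed by at least 1. SGCZ was the 1 passing gene among the 10 with the largest such changes: it was 1.65 lower in TET2WT at 4.5 g/L and 2.96 lower at 1 g/L. FLG, the skin protein filaggrin, read 8.08 in TET2WT and 7.21 in TET2M at 4.5 g/L, and 5.70 and 6.17 at 1 g/L. LHX8, a homeobox factor of the forebrain, read 2.60 in TET2WT and 4.49 in TET2M at 4.5 g/L, and 2.39 and 2.74 at 1 g/L. The high TET2M reading of LHX8 at 4.5 g/L and the high TET2WT reading of FLG at 4.5 g/L each came from 1 array. The other 7, CATSPERZ, FLJ46875, TSC22D3, SUOX, ZNF668, MPND and ATP6V1E2, had differences of opposite sign at the 2 concentrations and none passed.

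By chromosome, the differences were not evenly spread, a count made with the medians already known. On chromosome 13, 46 of 257 tested genes (17.9%) were lower and 2 higher in TET2WT, and the median difference was -0.29. Away from chromosome 13, 161 of 14171 genes (1.14%) were lower. In consecutive blocks of 25 genes along chromosome 13 the medians were -0.29 to -0.52 in the first 7 blocks and -0.17, -0.08 and -0.11 in the last 3. The median TET2WT minus Mock difference on chromosome 13 was -0.32 and the median TET2M minus Mock difference -0.03, so the shift was on the TET2WT side. Chromosome 20 had 26 of 441 genes higher and 1 lower (6.12% called), with a median of 0.14. There the median TET2WT minus Mock difference was 0.005 and the median TET2M minus Mock difference -0.15, so the shift was on the TET2M side. Chromosome 14 had a median of -0.10, with 2 genes higher and 6 lower of 458, and a median TET2M minus Mock difference of 0.08. In the other numbered chromosomes and X the medians lay between -0.02 and 0.045. DNA copy number was not measured on these arrays.

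Chromosome 13 also held genes that went far beyond or against the shift. NALCN, given above, was the largest, on the higher side. NALF1, an accessory subunit of the NALCN channel, read 2.87 and 2.90 in TET2WT, 4.25 and 4.12 in TET2M and 3.06 and 3.29 in Mock, and was 1.30 ± 0.11 lower. TET2M was the line apart from the others for NALF1, as it was for PCDH17. GPC6, a cell surface glypican, read 4.81 and 4.98 in TET2WT, 6.14 and 6.23 in TET2M and 5.77 and 5.99 in Mock (-1.29 ± 0.09, adjusted p = 0.00226), with -0.82 in the mean of its probe sets, which also passed. BORA, an activator of Aurora kinase in mitosis, and FREM2, a basement membrane protein of the developing skin, were each 0.96 lower (SE 0.12 and 0.10).

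**Figure D5:**
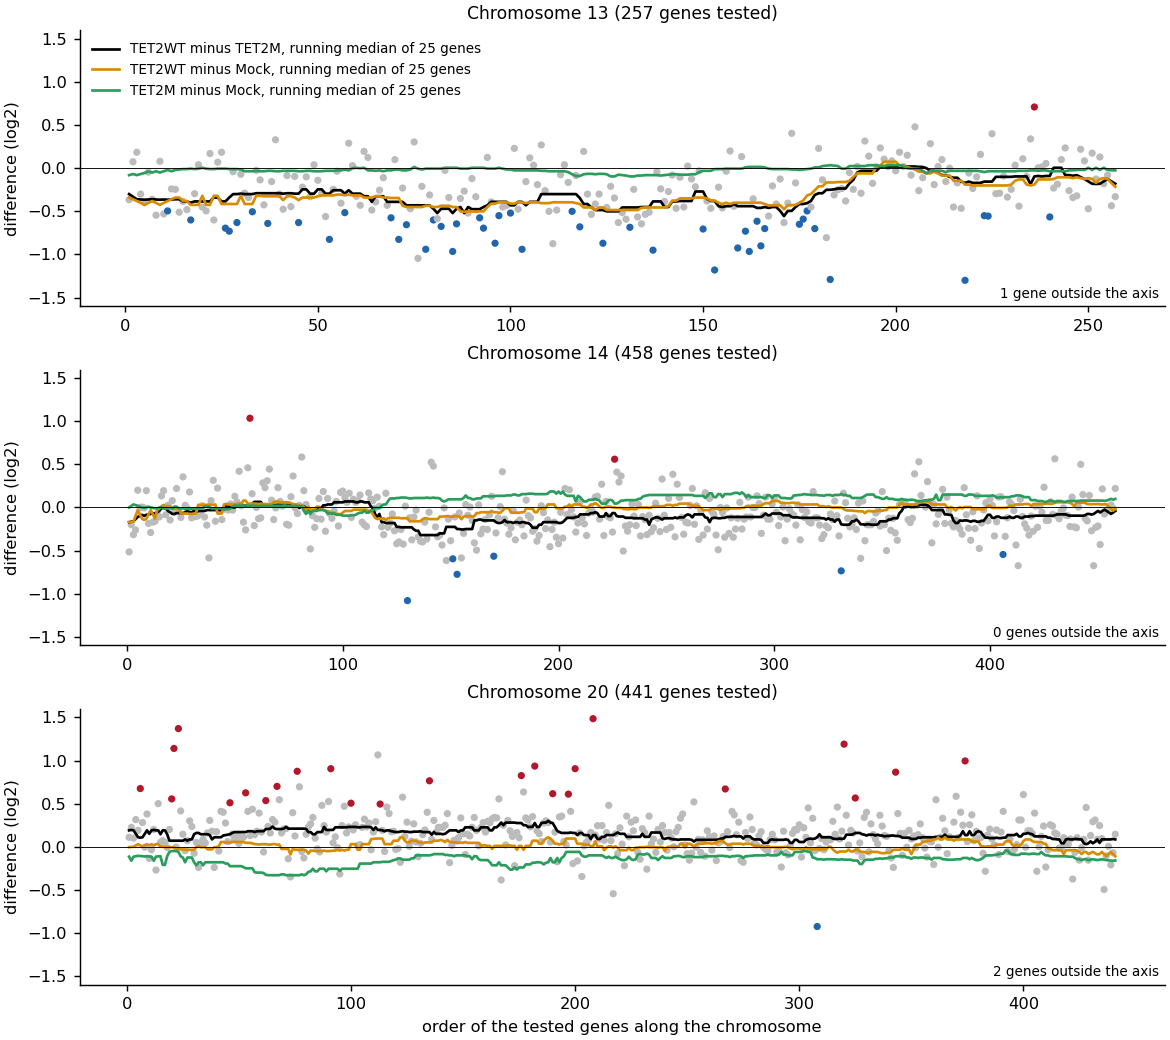
Difference TET2WT minus TET2M (y axis, log2) of the tested genes of chromosomes 13, 14 and 20 in their order along the chromosome (x axis, gene number); red and blue points passed, grey did not, and lines are running medians of 25 genes for TET2WT minus TET2M (black), TET2WT minus Mock (orange) and TET2M minus Mock (green). On chromosome 13 the black and orange lines run together below 0 over most of its length, and on chromosome 20 the black line lies above 0 and the green line below it.

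Promoter sequences of leading higher genes are shown because TET enzymes act on methylated CG pairs, which are marked in capitals. The last 120 bases before the start are given, from the RefSeq annotation of GRCh38.p14, 5′ to 3′ on the strand of the gene.
HSD17B3 (chr9:96302177-96302296, minus strand): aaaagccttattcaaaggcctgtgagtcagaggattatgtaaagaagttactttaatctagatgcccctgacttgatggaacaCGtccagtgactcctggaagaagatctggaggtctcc
SEMA3G (chr3:52445104-52445223, minus strand): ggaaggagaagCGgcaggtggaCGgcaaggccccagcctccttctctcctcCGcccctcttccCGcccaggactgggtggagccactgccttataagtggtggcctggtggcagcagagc
CHRNA9 (chr4:40335213-40335332, plus strand): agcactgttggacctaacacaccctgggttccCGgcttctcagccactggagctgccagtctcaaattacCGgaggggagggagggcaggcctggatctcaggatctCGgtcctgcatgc
MEST (chr7:130486055-130486174, plus strand): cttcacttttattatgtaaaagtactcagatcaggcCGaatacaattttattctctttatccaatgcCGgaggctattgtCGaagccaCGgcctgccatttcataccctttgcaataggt
GPX3 (chr5:151020471-151020590, plus strand): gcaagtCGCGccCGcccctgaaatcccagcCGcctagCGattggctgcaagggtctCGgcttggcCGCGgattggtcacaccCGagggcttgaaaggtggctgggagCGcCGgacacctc
The 5 windows hold 1, 4, 3, 4 and 11 CG pairs in that order, so the windows shown were both CG-poor and CG-rich. Only 1 start was taken for each gene, so the window of MEST need not be that of its imprinted transcript. Over the 250 bases before the start, the median number of CG pairs was 19 in the 210 higher genes with a promoter entry and 19 in the 170 lower genes, against 20 in all 11514 tested genes with an entry. At most 5 CG pairs were found in 21.0% of the higher, 17.1% of the lower and 13.4% of all these genes. These are counts of letters, and no methylation was measured.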

How the data were processed

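Total RNA of the Mock, TET2WT and TET2M lines was hybridised to 6 Affymetrix arrays. Per the submitters' processing notes, the authors made the deposited log2 values in Affymetrix Expression Console; the sources used here give neither its version nor its summary method. Values between 1.56 and 13.78 set the log base. The sorted columns differed by at most 0.12, so they were used without further normalization, and shifts common to all genes of a line cannot be seen.

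Of 54675 probe sets, 41097 named 1 gene in the platform annotation. Controls (62), probe sets with several names (1801) and those without one (11777) were not used. Symbols and chromosomes came from the RefSeq table of GRCh38.p14. Probe sets below the 40th percentile of means (2.64) were left out, and each gene took its probe set of highest mean.

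The model (limma 3.58.1, R 4.3.3) had terms for line and glucose over all 6 arrays, with 2 residual and 3.97 prior degrees of freedom. The Mock arrays added degrees of freedom and also entered the residual variance, the filter and the choice of probe set. They did not enter the TET2WT minus TET2M difference itself. Tests were two-sided, Benjamini-Hochberg adjusted over 14428 genes at 0.05. The code was run on data simulated from the model itself, which cannot show how well the model suits these arrays. Lists have no set test, and give counts and medians.

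The comparison, the members and the gene lists were chosen with earlier results of these data known. The rule for names took the 15 higher and 15 lower passing genes with the largest smaller difference of the 2 concentrations, passing over placeholder names. From each list it took up to 6 members with the largest differences, of which those that passed and a few others are named. It added TET1, TET2, TET3 and GAPDH, 10 genes whose difference changed most with glucose, and 6 passing genes of the chromosome with the most extreme median. Endothelial and blood markers are given by counts and levels. COL4A1, COL4A2, TIMP1, TIMP2, TIMP3, IFI44, OAS1, OAS3 and IFIT2 were named after their values were seen. Alternatives covered the arrays, model terms, variance, normalization, filter and probe set rule.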

Additional observations from a re-analysis of the deposited data

Results flagged for a closer look

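Of the 10 genes whose difference TET2WT minus TET2M changed most with glucose, 8 had opposite signs at the 2 concentrations, each value larger than the median SE of 0.10, as did 1697 of all 14428 genes. The change itself was not tested because 1 array stands behind each value. At 4.5 and 1 g/L the differences were 0.87 and -0.47 for FLG, 0.75 and -0.47 for TSC22D3, 0.62 and -0.49 for CATSPERZ and 0.51 and -0.65 for FLJ46875. In the other direction they were -0.32 and 1.21 for SUOX, -0.50 and 1.01 for ZNF668, -0.32 and 1.06 for MPND and -0.36 and 0.92 for ATP6V1E2. These genes were picked for the size of this change, so the values describe it and do not support it.

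Among probe sets with no gene symbol, which no comparison above uses, 10 of 4408 differed 2-fold or more with 1 sign at both concentrations between TET2WT and TET2M, against 2 between TET2M and Mock. The same rule between TET2WT and TET2M held for 121 of 14428 tested genes (0.839%), a larger share.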

How the results depend on the processing

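Precision rests on 1 array for each line and concentration. With any 1 array left out, or with the 4 TET2WT and TET2M arrays alone, 1 residual degree of freedom remained and limma called 0 genes, with 0 to 0 over the arrays left out and 1255 to 2353 (1974 for the 4 arrays) at an unadjusted p under 0.05. The arrays were paired by glucose concentration through the glucose term, since the labels carry no replicate numbers, and without that term 267 genes passed (163 higher, 104 lower) and 36 of the 102 passing genes named in the text no longer did, CXCL2, CXCL8, IL1A, CDKN1C and STC1 among them. An intensity trend in the variance gave 1249 (692 higher, 557 lower). The other alternatives gave 445 to 576 genes, and the share of higher genes stayed between 53.2% and 61%. At least 2-fold in place of 1.5-fold at both concentrations held for 121 genes. Averaging a gene's probe sets also gave 476 genes, of which 381 were the same, and lost 10 named calls, given beside their values. A robust variance lost CDH12, HES6, IL1A, PSMB9, SLC7A11 and TGFBI, and HES6 and PSMB9 were also lost without the filter. Of the 102, only WWC1 changed sign over the alternatives run, to 0.18 after quantile normalization, where another probe set was the brightest. With 1 array left out, genes that did not pass changed sign: CATSPERZ ran from -0.35 to 0.48, FLG from -0.51 to 0.91, TSC22D3 from -0.38 to 0.66, FLJ46875 from -0.57 to 0.43, ATP6V1E2 from -0.22 to 0.78, MPND from -0.27 to 1.01, SUOX from -0.15 to 1.04 and ZNF668 from -0.50 to 1.01. The median of chromosome 13 lay between -0.31 and -0.28 and that of chromosome 20 between 0.13 and 0.15 under 3 other normalizations.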
